A study of Mus musculus with 36 samples.

Results

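The genes described here are 10 markers of the non-parenchymal cells that line and surround the liver sinusoid, chosen by name from a table of 53715 genes. They fall into 5 endothelial genes (Stab2, Lyve1, Clec4g, Kdr and Pecam1) and 5 genes of stellate cells or the collagen matrix (Col1a1, Col1a2, Col3a1, Dcn and Reln). Their levels were read in bulk RNA-seq of liver from male C57BL/6 mice, 1 library per mouse. The mice ate, for 6 weeks from 4 weeks of age, the purified diet AIN93G alone (control, 12 libraries), or that diet with 10% by weight of red tomato powder (red, 12 libraries) or of tangerine tomato powder (tangerine, 12 libraries). Tissue was taken at 10 weeks of age, and each RNA extraction started from about 10 mg of preserved liver. The labels give 11 to 12 mice per group, and 12 libraries per group are used here. All groups share the strain, sex, age and base diet, and the labels name no transgene, pooling or batch. Where the labels number mice, a library is called here by its diet and mouse number. The study asked how the 2 tomato powders change the liver transcriptome.

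Liver sinusoids are capillaries with a fenestrated lining that clears waste macromolecules from blood. Hepatic stellate cells lie in the space between that lining and the hepatocytes, store vitamin A, and are the main source of fibrillar collagen when the liver scars. Stab2 and Lyve1 encode hyaluronan-binding receptors, Clec4g a C-type lectin, Kdr the main signalling receptor for VEGF-A, and Pecam1 a junctional adhesion molecule of all endothelium that leukocytes and platelets also carry. Col1a1 and Col1a2 encode the chains of type I collagen and Col3a1 that of type III collagen. Dcn encodes decorin, a small proteoglycan that binds collagen fibrils, and Reln encodes reelin, a secreted glycoprotein that stellate cells make in liver.

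No tested gene of the set differed between diets at an adjusted p under 0.05 in edgeR's quasi-likelihood test. The larger differences lay between single mice. In the libraries control 137 and tangerine 225 the 4 tested endothelial genes were the lowest of all 36, and in tangerine 192 and red 199 the 3 collagen genes were the highest of all 36. Apart from those libraries, 3 groups of genes moved together from mouse to mouse: Stab2 with Kdr, the 3 collagens with each other, and Dcn with Reln.

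The depth was 21290169 to 33810573 counts per library, lowest in control 137 and highest in red 199. Levels are given in CPM, the usual unit of read counts relative to library size, after scaling by TMM, a normalization by trimmed means. Of 53715 genes, 14068 had enough counts to be tested, and 9 of the 10 genes of the set were among them. The 4 libraries just named were singled out after their values were seen. Estimates of diet differences and correlations that rest on them are given with and without them. Intervals, coefficients of variation and levels per kb are given only with all libraries included. Red 186 and tangerine 216 also stand apart in the series. Red 186 held 167.7 summed CPM of T cell markers, where the highest of the other libraries held 4.43, and it held the adipose transcripts Plin1 (110 counts), Cidea (122), Adipoq (52) and Lep (42), whose median counts were 0 or 1. Car3, also on the adipose list, was not raised in red 186, at 3744 CPM beside a median of 4009 CPM over all libraries. Tangerine 216 held 10.7 CPM of pancreas markers, where no other library held more than 0.264. Leaving out these 2 libraries changed no call among the 10 genes.

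The promoters of Kdr and Col3a1 are shown because each stands for a group of genes that varied together. Promoters of 6 of the 10 genes were matched in RefSeq (build GRCm38.p6). Both windows end just before the annotated transcripts begin. Capitals mark matches, on either strand, to a TATA box, spelled TATAAA, or to a GC box, spelled GGGCGG, which reads CCGCCC from the other strand. The Kdr window is chr5:75978459-75978705 on the minus strand and the Col3a1 window is chr1:45311288-45311534 on the plus strand, both printed 5′ to 3′ along the gene.
Kdr: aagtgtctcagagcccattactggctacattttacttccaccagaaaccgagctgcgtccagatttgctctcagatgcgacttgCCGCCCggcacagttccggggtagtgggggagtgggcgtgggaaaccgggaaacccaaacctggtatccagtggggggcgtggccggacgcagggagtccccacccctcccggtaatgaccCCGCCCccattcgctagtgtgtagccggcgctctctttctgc
Col3a1: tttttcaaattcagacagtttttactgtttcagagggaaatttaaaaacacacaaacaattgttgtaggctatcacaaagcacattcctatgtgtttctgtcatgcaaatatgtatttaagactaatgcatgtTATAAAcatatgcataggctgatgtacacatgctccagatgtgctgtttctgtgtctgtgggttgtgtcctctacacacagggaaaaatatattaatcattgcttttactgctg
The Kdr window had 61.5% G and C and held 2 GC boxes, both on the opposite strand, starting 166 and 45 bases before the start of transcription. The Col3a1 window had 34.8% G and C and held 1 TATA box, starting 117 bases before it. Neither window held the CCAAT box or, on either strand, the ETS core with its flanks, spelled AGGAAG. Among 32851 promoters cut to the same window, 32.3% held the GC box, 12.3% the TATA box, 33.6% the CCAAT box and 29.2% the ETS core.

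Stab2 (ENSMUSG00000035459.17, chromosome 10, 86841198 to 87008025, minus strand of GRCm38) had a median of 22.9 CPM on control, with a lowest value of 5.35 and a highest of 27.0. On red its values ran from 16.9 through a median of 22.7 to 27.2 CPM. On tangerine they ran from 8.32 through 21.4 to 26.7 CPM. The 3 diets overlapped above 16.9 CPM, and both values below 10 CPM came from control 137 and tangerine 225. On tangerine 2 more livers, 192 and 242, lay below every red liver, at 14.5 and 14.9 CPM. Kdr (ENSMUSG00000062960.10, chromosome 5, 75932827 to 75978458, minus strand) was at 18.5, 57.7 and 65.4 CPM on control, as the lowest, median and highest of 12. It was at 48.9, 56.8 and 62.2 CPM on red. It was at 27.3, 58.2 and 62.8 CPM on tangerine. The medians for Kdr, the VEGF receptor, thus lay within 2 CPM of each other, with the same 2 libraries far below.

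Lyve1 (ENSMUSG00000030787.4, chromosome 7, 110850607 to 110863239, minus strand) had control values from 2.35 through a median of 8.25 to 11.2 CPM. On red they ran from 4.73 through 6.62 to 10.3 CPM. On tangerine they ran from 3.69 through 6.99 to 9.03 CPM. For this hyaluronan receptor 5 of the 12 red and 2 of the 12 tangerine libraries lay above the control median, and the groups overlapped. Pecam1 (ENSMUSG00000020717.19, chromosome 11, 106654217 to 106750628, minus strand) varied least of the 10 between mice, with a coefficient of variation of 12.7%. It ran from 10.0 through a median of 18.3 to 19.5 CPM on control. It ran from 16.0 through 18.8 to 20.8 CPM on red and from 10.4 through 18.2 to 19.8 CPM on tangerine. Its highest value, 20.8 CPM, was in red 186, the library with T cell and adipose transcripts, and the part of those transcripts in it was not tested.

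Clec4g (ENSMUSG00000074491.9, chromosome 8, 3707064 to 3720651, minus strand) had 0 to 6 counts per library, 102 in all, and 0 in 3 libraries. It was too low to test. In the GENCODE release M21 annotation 51.7% of its exonic bases lie inside Gm16553, a gene on the other strand. Libraries were made with a directional kit, but whether strand was used in counting is not given in the sources used here. Among protein-coding genes whose exonic bases all lie inside a gene on the other strand, 96.6% (827 of 856) had 0 counts in every library, against 19.6% of 14052 genes whose exons touch no other gene. The same overlap covers 48.3% of the exonic bases of Stab2 and 10.8% of those of Reln. How far this lowers the levels of these 3 genes was not tested, and the counts do not record the strand of a read.

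Col1a1 (ENSMUSG00000001506.10, chromosome 11, 94936224 to 94953042, plus strand) had a median of 6.98 CPM on control, between 3.93 and 18.5. On red its median was 5.97 CPM, between 4.29 and 28.4. On tangerine it was 9.64 CPM, between 3.99 and 101. The highest value is that of tangerine 192, and the next on tangerine was 16.5 CPM, inside the control range. Col1a2 (ENSMUSG00000029661.16, chromosome 6, 4504814 to 4541544, plus strand) ran from 8.76 through a median of 14.3 to 24.1 CPM on control. It ran from 8.83 through 13.1 to 34.2 CPM on red and from 10.2 through 14.9 to 90.4 CPM on tangerine. Both extremes again came from red 199 and tangerine 192. Col3a1 (ENSMUSG00000026043.18, chromosome 1, 45311538 to 45349706, plus strand) was at 21.2, 34.5 and 67.1 CPM on control, as lowest, median and highest. It was at 22.5, 34.1 and 91.1 CPM on red and at 26.0, 39.4 and 167 CPM on tangerine. The highest red and tangerine values were from the same 2 libraries as for type I collagen.

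Dcn (ENSMUSG00000019929.16, chromosome 10, 97479609 to 97518143, plus strand) had control values of 98.1 to 167 CPM with a median of 125. Red values were 99.2 to 143 CPM with a median of 113, and 10 of the 12 control libraries lay above that median. Tangerine values were 102 to 159 CPM with a median of 124. Decorin showed no library with a several-fold excess, and its groups overlapped throughout. Reln (ENSMUSG00000042453.14, chromosome 5, 21884454 to 22344702, minus strand) ran from 33.8 through 46.2 to 61.1 CPM on control and from 31.3 through 40.5 to 60.6 CPM on red. It ran from 33.2 through 44.8 to 75.1 CPM on tangerine. Of the red libraries, 2 of 12 lay above the control median for reelin.

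**Figure D1:**
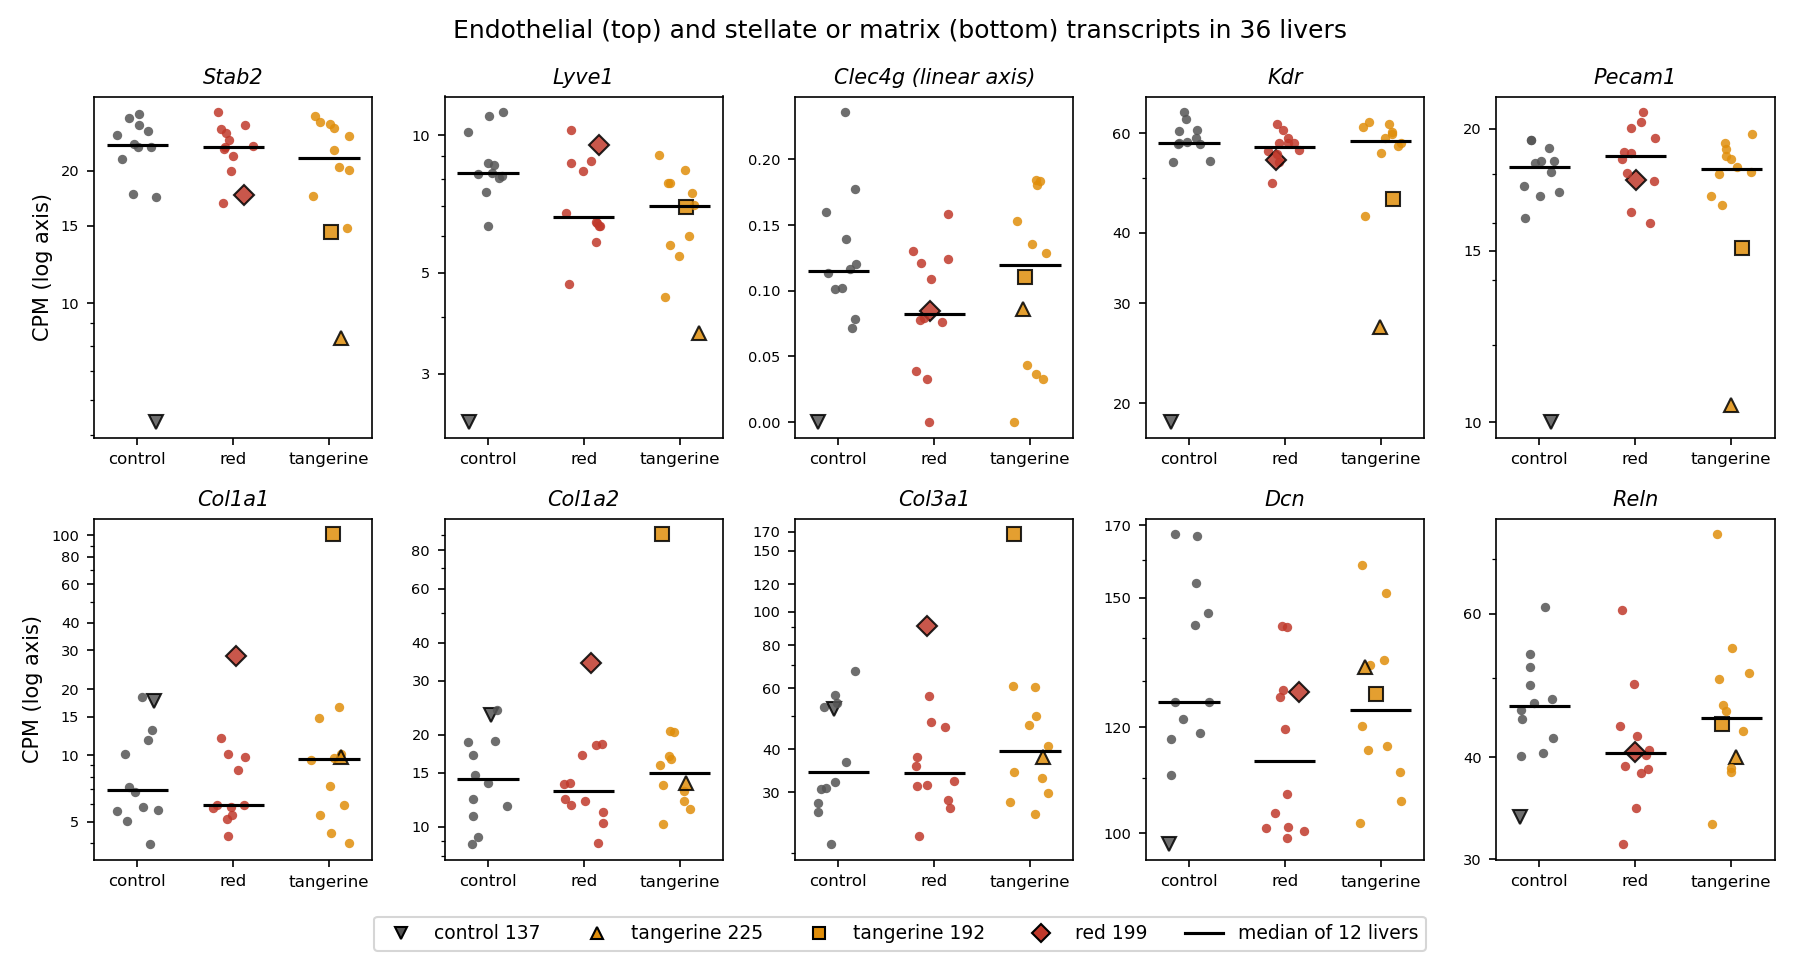
CPM of the 10 genes in each of 36 livers by diet, 1 point per liver, on log axes except for Clec4g, with black bars for the median of 12 livers and outlined symbols for 4 livers named in the text. Control 137 (5.35 CPM of Stab2) and tangerine 225 (8.32 CPM) sit below the rest for the endothelial genes, and tangerine 192 (101 CPM of Col1a1) and red 199 (28.4 CPM) above it for the collagens.

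Levels between genes can be compared only per length. Divided by the length of the transcript with the longest coding sequence, the mean over 36 libraries was highest for Dcn, at 26.7 ± 4.18 CPM per kb (SD, n = 36). Kdr followed at 9.35 ± 1.57 and Col3a1 at 7.97 ± 4.65 CPM per kb, with overlapping SDs and medians of 9.72 and 6.54. Pecam1 was at 5.18 ± 0.656 CPM per kb and Reln at 3.84 ± 0.740. Col1a2 (3.23 ± 2.53), Stab2 (2.61 ± 0.605), Lyve1 (2.56 ± 0.677) and Col1a1 (1.95 ± 2.73) had overlapping SDs. These SDs are spreads between livers and do not compare genes within a liver. Within livers, the ratio of Col1a1 to Col1a2 by these lengths was at most 0.692 on control and 0.747 on red. On tangerine it was 1.01 in tangerine 192 and at most 0.731 in the other livers. The Col1a1 mean includes tangerine 192, at 17.1 CPM per kb, and the Col1a1 median over all libraries was 1.22 CPM per kb. Clec4g was at 0.0717 ± 0.0396 CPM per kb. Over all annotated exons Stab2 averaged 2.45 ± 0.568 CPM per kb, and over only its exonic bases outside other genes it averaged 4.74 ± 1.098. That last length was chosen after seeing the data. All annotated exons in place of the 1 transcript also moved Dcn to 21.4 ± 3.36, Kdr to 6.13 ± 1.03, Pecam1 to 2.86 ± 0.362, Reln to 1.89 ± 0.365 and Col1a2 to 1.39 ± 1.09 CPM per kb, below Col1a1 at 1.77 ± 2.47. The order of the genes below Dcn therefore depends on the length used.

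Red against control called 0 of the 9 tested genes, where 0.149% of all 14068 tested genes were called. At an unadjusted p under 0.05 it passed 1 of 9, Dcn, against 13.3% of all genes. Dcn, the collagen-binding proteoglycan, had a log2 fold change of -0.19 on red (SE 0.0855, edgeR unadjusted p = 0.0333, adjusted p = 0.335). DESeq2 called 0 of 9 (1.17% of all genes). Limma-voom with sample weights called Dcn alone (-0.24, SE 0.080, adjusted p = 0.0456), at a setting where it called 10.7% of all genes. Reln was at -0.15 (SE 0.103) and Lyve1 at -0.16 (SE 0.157), neither past the threshold.

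Tangerine against control called 0 of 9 (0.0142% of all genes), with 0 of 9 at an unadjusted p under 0.05 (5.47% of all genes) and 0 by DESeq2 (0.0426% of all genes) or limma-voom (0.0142%). The estimate farthest from 0 was that of Col1a1, at a log2 fold change of 0.84 (SE 0.436, edgeR unadjusted p = 0.0620, adjusted p = 0.920). Col1a2 was at 0.47 (SE 0.287) and Col3a1 at 0.33 (SE 0.260). These 3 values rested on 1 mouse. Without tangerine 192 they were -0.06, -0.03 and -0.0020. Lyve1 was at -0.30 (SE 0.158, edgeR unadjusted p = 0.0621, adjusted p = 0.920).

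Tangerine against red called 0 of 9 (1.71% of all genes), with 0 of 9 at an unadjusted p under 0.05 (15.1% of all genes) and 0 by DESeq2 (2.78% of all genes) or limma-voom (4.40%). Col1a1 was at 0.88 (SE 0.435, edgeR unadjusted p = 0.0504, adjusted p = 0.331), at -0.02 without tangerine 192 and at 1.21 without red 199, in neither case called. DESeq2, which replaces counts far from the rest of a group, replaced the Col1a1 count of tangerine 192 and gave -0.02, and -0.07 for tangerine against control. The test of any difference among the 3 diets called 0 of 9 (1.18% of all genes) and passed 0 of 9 at an unadjusted p under 0.05 (13.9% of all genes), and DESeq2 (2.72%) and limma-voom (8.10%) also called 0. The 2 comparisons with control share their 12 control libraries, so their estimates are not independent.

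A p that misses the threshold does not show equal levels, and the 95% intervals give what these data allow. For the 4 endothelial genes, over all 3 comparisons, the fold difference between diets lay between 0.649 (Lyve1, tangerine against control) and 1.31 (Stab2, red against control). For Dcn and Reln it lay between 0.778 and 1.29. For the 3 collagens it lay between 0.524 and 3.40, both for Col1a1, whose coefficient of variation over all livers was 139.8%. The limit of 3.40 is that of tangerine against red, an estimate that rests on tangerine 192, as given above. Intervals without the libraries that stand apart are not given here, so the collagen range holds only with those libraries included. In bulk tissue, fewer cells of a type and less RNA per cell cannot be told apart.

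**Figure D2:**
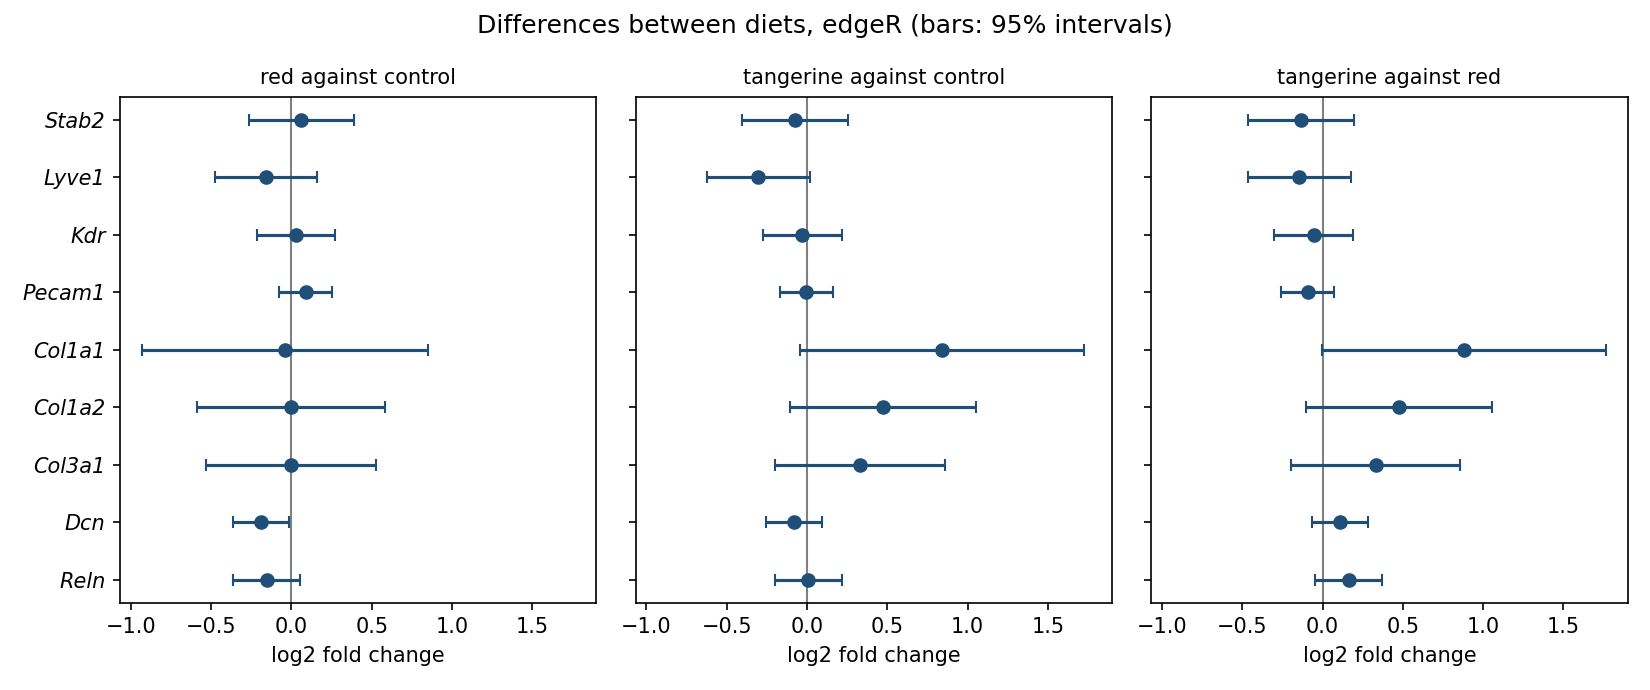
Log2 fold change of the 9 tested genes (points) with 95% intervals (bars) in the 3 comparisons between diets, from edgeR. The interval of Col1a1 is the widest in each panel, and its estimates for tangerine, 0.84 and 0.88, include tangerine 192.

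Control 137 had the lowest value of all 36 libraries for each of the 4 tested endothelial genes. In this library 15.8% of all tested genes were at their lowest and 14.7% at their highest, more than in any other. Stab2 stood at 0.233 times the median of the other 11 control livers, Lyve1 at 0.284, Kdr at 0.320 and Pecam1 at 0.542 times. Of 13 other sinusoidal endothelial genes, 12 were at their lowest there, among them the mannose receptor Mrc1 (10.7 CPM, median of the other controls 52.9), Oit3 (8.06 and 32.3 CPM) and coagulation factor F8 (7.96 and 26.1 CPM). The exception was the transcription factor Gata4, at 16.3 CPM beside a median of 15.9. Of 15 genes of all endothelium 10 were at their lowest, including the junctional cadherin Cdh5 at 8.61 CPM beside 27.0. Of 8 signals that liver endothelium sends, 5 were at their lowest, including Bmp2 (5.75 beside 21.3 CPM) and Wnt2 (1.20 beside 3.38 CPM).

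Tangerine 225 was second lowest of 36 for the same 4 genes, at 0.373 times the median of the other 11 tangerine livers for Stab2, 0.525 for Lyve1, 0.465 for Kdr and 0.570 for Pecam1. It held the lowest value of 4.71% of all tested genes. Its summed level of other sinusoidal genes, 427.2 CPM, was also second lowest, beside 299.2 CPM in control 137 and at least 516.8 CPM in the other tangerine livers. Markers of Kupffer cells, the macrophages of the sinusoid, moved with it. Their 7 genes summed to 85.3 CPM in control 137 and to 118.8 CPM in tangerine 225, below the 137.8 CPM that was the least in any other control and 154.9 CPM in any other tangerine liver. The part of the 2 libraries' handling or cell content in these values was not tested.

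Genes of stellate cells and matrix lay on both sides of their median in these 2 libraries. In control 137 Col1a1 was at 2.60 times, Col1a2 at 1.66 times and Col3a1 at 1.63 times the median of the other controls. Dcn was the lowest of 36 there, at 78.2% of that median, and Reln was at 72.4%. Of 15 other stellate cell genes 0 were at their lowest. Their sum, 316.3 CPM, was the highest of all 36, level with the 316.2 CPM of control 245. Of 17 genes of TGF-beta and PDGF signalling, however, 9 were at their lowest in control 137, and their sum, 127.1 CPM, was the lowest of 36. In tangerine 225 the 3 collagens, Dcn and Reln lay between 87.4% and 110.8% of the median of the other tangerine livers. Of 18 other matrix proteins 5 were at their lowest there, with a sum of 1776 CPM, second lowest of 36. The other stellate cell genes summed to 222.0 CPM, lower in 2 other livers alone. Without both libraries the estimates for red against control became -0.03 for Stab2 and -0.06 for Kdr, and still 0 of 9 genes were called.

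**Figure D3:**
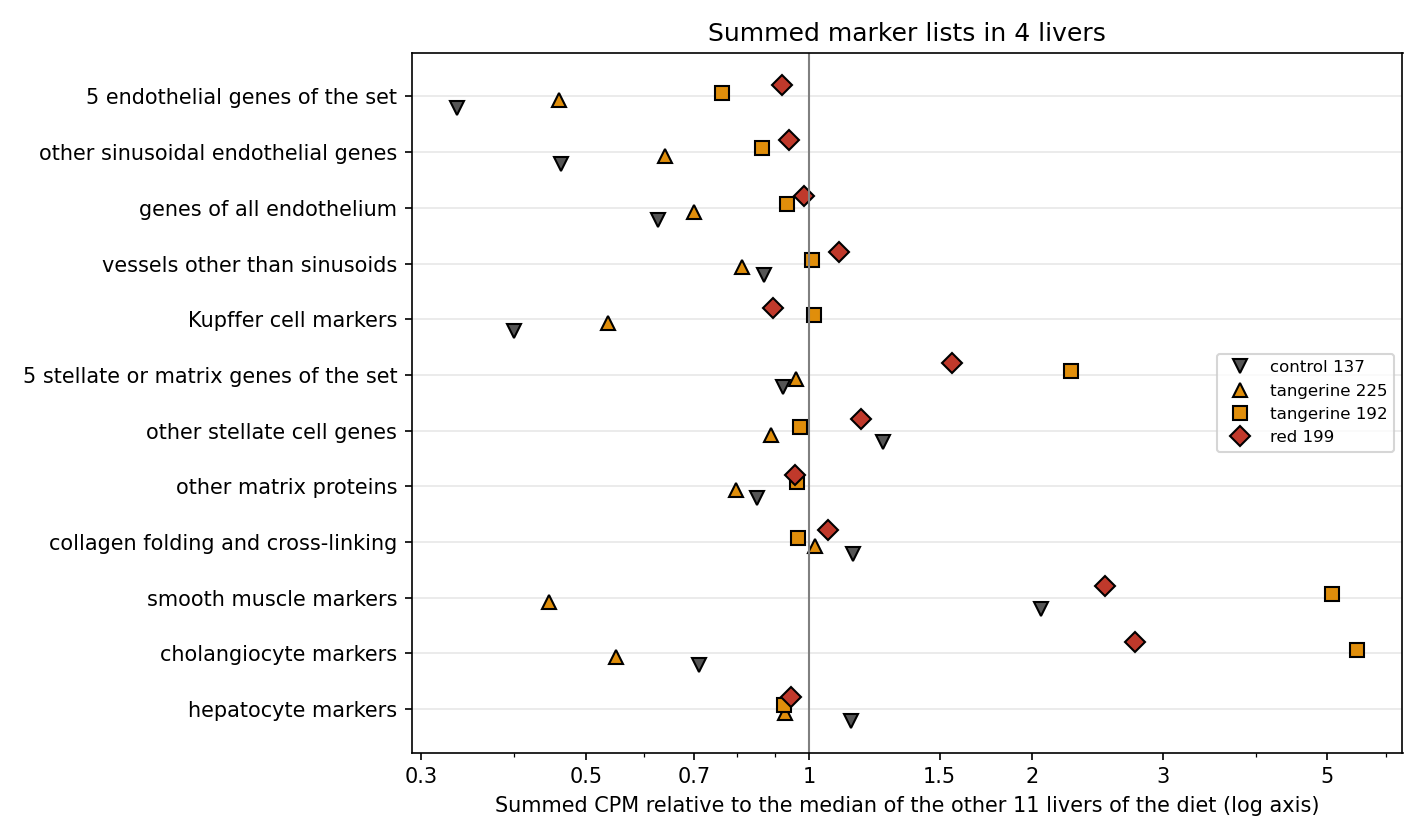
Summed CPM of marker lists in 4 livers relative to the median of the other 11 livers of the same diet, on a log axis. Control 137 and tangerine 225 lie left of 1 for endothelial and Kupffer cell lists, and tangerine 192 lies far right for smooth muscle and cholangiocyte lists, which Acta2 and Spp1 lead.

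Tangerine 192 had the highest collagen levels of all 36 livers. Beside the other 11 tangerine livers its Col1a1 was at 10.6 times, its Col1a2 at 6.49 times and its Col3a1 at 4.42 times their median. Dcn was at 1.06 times and Reln at 0.965 times their median, and Stab2, at 0.650 times, was lower in 2 other livers alone. This library held the highest value of 3.18% of all tested genes. Of 18 other matrix proteins 9 were at their highest in it, including the fibril collagens Col5a2 (13.2 CPM, median of the others 2.87) and Col5a1 (18.4 and 7.90 CPM), and fibrillin Fbn1 (5.27 and 2.54 CPM). The sum of the 18 was not raised, at 2142 CPM beside a median of 2224 CPM. The other genes named for these 4 livers were chosen after their values were seen.

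Of 15 tested genes for the folding and cross-linking of collagen, 6 were also at their highest in tangerine 192. The list as a whole summed to 1680 CPM there, beside a median of 1740 CPM. The collagen chaperone Serpinh1 was at 27.3 CPM beside a median of 9.32, the lysyl hydroxylase Plod2 at 1.18 beside 0.37 CPM, and the cross-linking enzyme Loxl2 at 6.71 beside 2.31 CPM. Lox, a lysyl oxidase too low to be tested, had 72 counts there (2.65 CPM, and at most 0.79 CPM in any other library). Of 17 genes of TGF-beta and PDGF signalling 2 were at their highest in tangerine 192, and the list summed to 198.5 CPM beside a median of 179.4. The ligands Tgfb1 (9.95 CPM) and Pdgfb (1.18 CPM) were at their highest of 36, at 1.28 and 1.78 times the median of the others.

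Spp1, which encodes osteopontin, had 2917 counts in tangerine 192, where the median of 36 was 440. Acta2, which encodes smooth muscle actin, had 286, where the median was 22. Of the other markers on the smooth muscle list, Tagln (29 counts, median 21) and Actg2 (11 counts, median 0) were also at their highest count of 36, while Myh11 was at 24 (median 23) and Cnn1 at 0 (median 0). On the cholangiocyte list with Spp1, Epcam was at 23 counts (median 14), Krt19 at 12 (median 9.5), Sox9 at 65 (median 66) and Krt7 at 1 (median 4). Of 15 other stellate cell genes 0 were at their highest, and their sum of 243.1 CPM lay beside a median of 249.8 CPM. The part of other cell types in the collagen values was not tested. Kupffer cell markers summed to 221.7 CPM beside 218.3, and hepatocyte markers were 0.924 times their median.

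Red 199 was second highest of 36 for all 3 collagens, at 4.75 times the median of the other red livers for Col1a1, 2.77 times for Col1a2 and 2.82 times for Col3a1. It held the highest value of 1.18% of all tested genes. Dcn (1.19 times) and Reln (1.01 times) were again close to their median. Of 15 other stellate cell genes 3 were at their highest in it, with a sum of 304.7 CPM, and genes of matrix breakdown summed to 92.2 CPM, the highest of 36. Spp1 reached 1485 counts and Acta2 125 counts in it, and here Sox9, at 203 counts, and Krt19, at 28 counts, were the highest of 36. The per-kb ratio of Col1a1 to Col1a2 was highest of its diet in these 2 livers, 1.01 in tangerine 192 and 0.747 in red 199, beside medians of 0.539 and 0.457. The size of this ratio depends on the transcript lengths used, while its order between livers does not.

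Across the 36 livers, with diet means removed, 13 of the 45 pairs among the 10 genes were correlated at an adjusted p under 0.05 (two-sided permutation of libraries within diets, Pearson's r of log2 CPM). Stab2 and Kdr had r = 0.948 and rho = 0.789, both with an adjusted permutation p of 0.000112, which comes from 1e-05, the smallest p the permutations can give. Without the 2 libraries farthest from the median, r was 0.786. Within diets it was 0.969 on control, 0.719 on red and 0.951 on tangerine. Without red 186 and tangerine 216 the value on red was 0.516. The 2 genes thus moved together also on red, though less closely without red 186. Red holds neither of the livers with low endothelial levels.

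The other endothelial pairs rested on control 137 and tangerine 225. Kdr with Pecam1 went from r = 0.869 to 0.335 without the 2 farthest libraries, and Stab2 with Pecam1 from 0.816 to 0.272. Lyve1 with Kdr went from 0.717 to 0.025, Lyve1 with Pecam1 from 0.636 to -0.034, and Stab2 with Lyve1 from 0.628 to -0.083. By rank, Kdr with Pecam1 had rho = 0.476 (adjusted permutation p = 0.0298), and the other 4 of these pairs had rho from 0.149 to 0.417 with adjusted permutation p from 0.0622 to 0.608. On the red diet Pecam1 had r = -0.226 with Kdr and -0.061 with Stab2. Without red 186 and tangerine 216 these 2 values on red were 0.142 and 0.302. With control 137 and tangerine 225 left out, Pecam1 had r = 0.699 with Kdr and 0.613 with Stab2 on tangerine. On control it then had 0.337 and 0.123. With control 137 and tangerine 225 left out, 5 of 45 pairs passed, and Stab2 with Kdr was the endothelial pair among them.

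The 3 collagens gave r = 0.959 for Col1a1 with Col1a2, 0.959 for Col1a1 with Col3a1 and 0.960 for Col1a2 with Col3a1, each with an adjusted permutation p of 0.000112. Without the 2 farthest libraries these were 0.906, 0.927 and 0.943. Within diets all 3 pairs lay between 0.904 and 0.984. By rank, rho was 0.882, 0.923 and 0.947, with the same adjusted permutation p. The chains of type I and type III collagen thus moved together within each diet as well. Dcn and Reln had r = 0.614 and rho = 0.569 (adjusted permutation p = 0.000180 and 0.00324), and 0.604 without the 2 farthest libraries.

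Over all 36 livers no collagen was correlated with Dcn or Reln past the threshold. Col3a1 with Dcn had r = 0.303 (adjusted permutation p = 0.184) and Col1a2 with Dcn r = 0.248 (adjusted permutation p = 0.272). Without control 137 and tangerine 225, rho was 0.541 for Col1a2 with Dcn (adjusted permutation p = 0.00990) and 0.505 for Col3a1 with Dcn (adjusted permutation p = 0.0213), while r was 0.356 and 0.386 (both adjusted permutation p = 0.147). Within red the 3 collagens had r from 0.639 to 0.672 with Dcn, and within control from -0.203 to 0.113. Reln was correlated with the endothelial genes Stab2 (r = 0.479, adjusted permutation p = 0.0220) and Kdr (r = 0.467, adjusted permutation p = 0.0256), and Lyve1 with Dcn (r = 0.439, adjusted permutation p = 0.0361). Without the 2 farthest libraries these became 0.399, 0.459 and 0.366. Earlier results of these data had shown a score of the clock genes to vary between these livers. None of the 10 genes was correlated with it past the threshold (smallest adjusted permutation p = 0.497 for r and 0.332 for rho). Within red, Stab2, Lyve1 and Kdr had r of 0.596, 0.566 and 0.567 with the score. Within control and tangerine their r lay between -0.124 and 0.121. With control 137 and tangerine 225 left out, r on control was 0.409 for Stab2, 0.358 for Kdr and -0.169 for Lyve1. On tangerine the values for these genes then lay between -0.015 and 0.051.

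**Figure D4:**
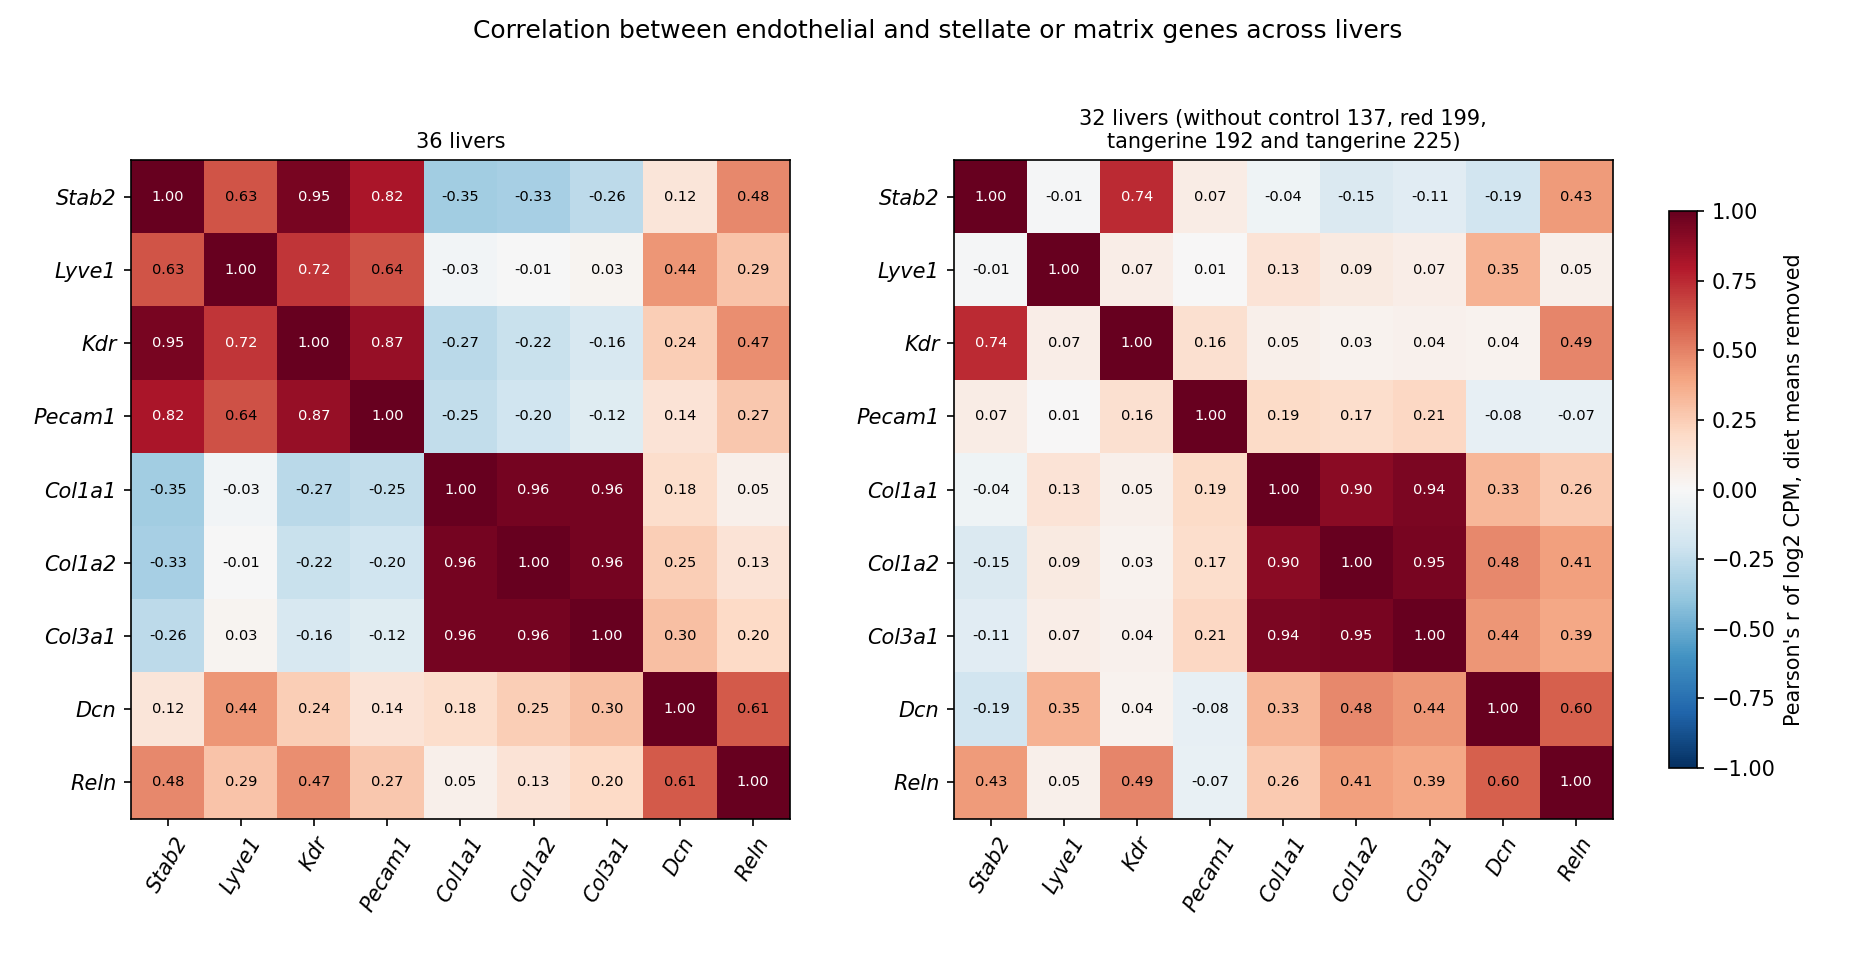
Pearson's r of log2 CPM with diet means removed, for each pair of the 9 tested genes, over 36 livers (left) and over 32 livers without the 4 that stand apart (right). The block of 4 endothelial genes on the left shrinks to Stab2 with Kdr (0.95 and 0.74), while the collagen block keeps r of at least 0.90.

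**Figure D5:**
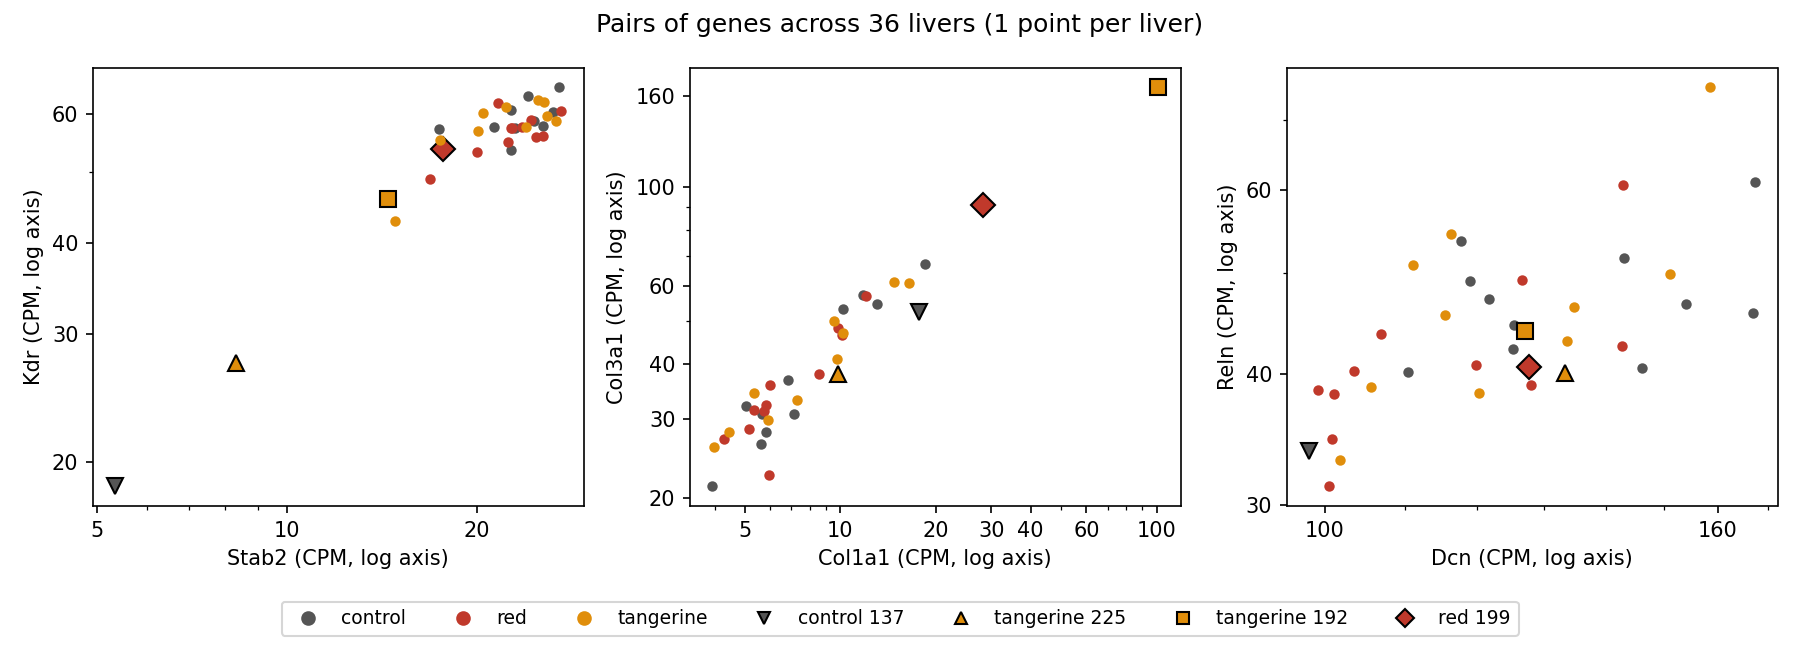
CPM of Kdr against Stab2, Col3a1 against Col1a1, and Reln against Dcn, on log axes, 1 point per liver coloured by diet. Control 137 and tangerine 225 extend the first relation downwards (5.35 and 8.32 CPM of Stab2), and red 199 and tangerine 192 extend the second upwards (28.4 and 101 CPM of Col1a1).

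The genes whose pattern over the 36 livers was most like each of the set were named by the same correlation among the 10969 tested genes whose log2 CPM averaged 1 or more. For Stab2 they were the endothelial phosphatase Ptprb (r = 0.951), Kdr (0.948) and Adgrf5 (0.914). For Kdr they were Mrc1 (0.950), the water channel Aqp1 (0.949) and Stab2. For Pecam1 they were Adgre5 (0.900), Tinagl1 (0.876) and Mmrn2 (0.874), and for Lyve1 the potassium channel Kcnk6 (0.819), Oit3 (0.790) and Ehd3 (0.785). Without the 4 libraries that stand apart Ptprb kept r = 0.776 with Stab2, while Mmrn2 had 0.241 with Pecam1 and Oit3 0.371 with Lyve1.

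Beyond each other, the collagens were most like the filament gene Vim (0.885, with Col1a1), Loxl2 (0.885, with Col1a2) and the procollagen protease Adamts2 (0.899, with Col3a1, and 0.894 without the 4 libraries). Dcn was most like the integrin Itga8 (0.817), the peptide-amidating enzyme Pam (0.810) and the channel subunit Abcc9 (0.803). Reln was like Abcc9 (0.877) and Hgf (0.687). Leaving out the 4 libraries moved the values of Dcn and Reln little, to 0.810 for Itga8 and to 0.863 for Abcc9 with Reln.

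Beside the set, 139 genes of the same cells and pathways were listed, and 124 of them were tested. Red against control called 0 of 124 (0.149% of all genes) and passed 9 at an unadjusted p under 0.05 (13.3% of all genes). Tangerine against control called 0 (0.0142%) and passed 6 (5.47%). Tangerine against red called 1 (1.71%) and passed 9 (15.1%). DESeq2 called 0, 0 and 2 of the 124 in these comparisons, where it called 1.17%, 0.0426% and 2.78% of all genes. Limma-voom called 10, 0 and 4, where it called 10.7%, 0.0142% and 4.40% of all genes. Its 10 calls for red against control were Maf, Nrp1, Ngfr, Pth1r, Sod3, Plod3, Mmp14, Tgfbr1, Tgfbr3 and Pdgfc, and its 4 for tangerine against red were Ngfr, Bmp1, Mmp14 and Pdgfc. Beside the medians of all tested genes, which were -0.0047, -0.012 and -0.0046, the median log2 fold changes of 13 other sinusoidal genes were 0.05, 0.0021 and -0.05, and those of 15 other stellate cell genes 0.04, -0.03 and -0.05.

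The 1 gene called was Ngfr, the p75 neurotrophin receptor, which marks stellate cells. Its level was 3.52, 4.80 and 8.93 CPM on control, as lowest, median and highest. It was 5.09, 6.65 and 8.61 CPM on red and 2.88, 4.49 and 6.19 CPM on tangerine. The groups overlapped. In edgeR's test its log2 fold change was 0.41 for red against control (SE 0.133, adjusted p = 0.158) and -0.13 for tangerine against control (SE 0.135), neither called. Ngfr was lower on tangerine than on red, with a log2 fold change of -0.53, an SE of 0.133 and an edgeR adjusted p of 0.0287. With the clock score as a covariate the value was -0.23 (adjusted p = 0.532). In that fit 0 of all 14068 tested genes were called in this comparison, where the reported fit called 241. The edgeR call of Ngfr was also lost with mouse number as a covariate (adjusted p = 0.0794). It was lost without red 186 and tangerine 216 (adjusted p = 0.0800) and without red 199 and tangerine 192 (adjusted p = 0.0536). Those fits called 32, 86 and 185 of all tested genes. The Ngfr call was lost too without single red libraries (156, 175 or 199) or single tangerine libraries (215, 216, 217 or 242), with edgeR adjusted p from 0.0509 to 0.0682.

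Among sinusoidal and other endothelial genes, 0 of 28 tested passed an unadjusted p under 0.05 in any comparison in edgeR. The smallest p values were those of Gata4, Maf, Nrp1 and Tek. Gata4, a transcription factor of sinusoidal identity, was at 0.28 for red against control (SE 0.142, edgeR adjusted p = 0.396), with medians of 16.1 and 21.2 CPM. Maf was at -0.28 (SE 0.177, edgeR adjusted p = 0.513), with medians of 21.2 and 15.3 CPM, and limma-voom called it (-0.47, adjusted p = 0.0372). The VEGF co-receptor Nrp1 was at 0.14 for red against control (SE 0.071, edgeR adjusted p = 0.402), and limma-voom called it (0.20, adjusted p = 0.0345). The angiopoietin receptor Tek was at -0.16 for tangerine against red (SE 0.116, adjusted p = 0.537).

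Of 5 tested VEGF and angiopoietin ligands, Vegfb passed an unadjusted threshold, at -0.29 for tangerine against control (SE 0.105, edgeR adjusted p = 0.683), and Vegfd was at 0.30 for red against control (SE 0.201). Of 8 signals sent by endothelium, Bmp6, which drives hepcidin in hepatocytes, was at 0.29 for tangerine against control (SE 0.111, adjusted p = 0.724). Wnt2 was at 0.19 for red against control (SE 0.119). Of 6 genes of other vessels, Efnb2, at 0.16 for red against control (SE 0.123), and Ephb4, at 0.050 for tangerine against red (SE 0.066), had the smallest p.

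In stellate cells, Pth1r followed Ngfr in the list, at 0.26 for red against control (SE 0.097, edgeR adjusted p = 0.230; limma-voom 0.30, adjusted p = 0.0311) and -0.24 for tangerine against red (adjusted p = 0.212). Of 18 other matrix proteins, Efemp1 was at -0.21 for tangerine against control (SE 0.094, adjusted p = 0.822) and the basement membrane collagen Col4a1 at -0.28 for tangerine against red (SE 0.124, adjusted p = 0.278). Of 15 tested genes of collagen processing, the procollagen protease Bmp1 was at -0.19 for tangerine against red (SE 0.065, edgeR adjusted p = 0.126; limma-voom -0.19, adjusted p = 0.0343) and P4hb at 0.10 (SE 0.046, adjusted p = 0.315).

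Among 7 tested genes of matrix breakdown, the membrane protease Mmp14 was at -0.31 for tangerine against red (SE 0.088, edgeR adjusted p = 0.064), and DESeq2 (-0.30, adjusted p = 0.0410) and limma-voom (-0.37, adjusted p = 0.00925) called it. For red against control Mmp14 was at 0.23 (SE 0.088, edgeR adjusted p = 0.239), and limma-voom called it (0.30, adjusted p = 0.0201). Of 17 genes of TGF-beta and PDGF signalling, Pdgfc was at -0.56 for tangerine against red (SE 0.185, edgeR adjusted p = 0.116; limma-voom -0.62, adjusted p = 0.0389). For red against control it was at 0.46 (SE 0.184, edgeR adjusted p = 0.266; limma-voom 0.51, adjusted p = 0.0480). Skil was at -0.40 for tangerine against control (SE 0.155, adjusted p = 0.738). Among 5 tested partners of reelin and hyaluronan, the hyaluronan receptor Cd44 was at 0.36 for tangerine against control (SE 0.112, adjusted p = 0.587) and Hyal2 at -0.10 for tangerine against red (SE 0.070).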

How the data were processed

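Libraries of liver RNA from 36 mice were sequenced, and the deposited table holds whole-number counts per Ensembl gene, not normalized. The submitters' processing notes name FastQC, Trimmomatic, edgeR and the build GRCm38.p6. The aligner, the counting program, the annotation release and the strand setting are not given in the sources used here. Symbols and positions came from GENCODE release M21 (GRCm38). Every column was matched to its mouse by the labels. Promoter sequences are those of RefSeq.

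Genes were kept with filterByExpr (minimum count 10, minimum total 15) and scaled by TMM. EdgeR 4.0.16 (R 4.3.3) fitted all 36 libraries with diet as the term (robust quasi-likelihood F test), with Benjamini-Hochberg adjustment over 14068 genes and a threshold of 0.05. Standard errors are the absolute log2 fold change divided by the square root of F, and 95% intervals use the total degrees of freedom of each gene's test. DESeq2 1.42.0 and limma 3.58.1 (voom with sample weights) were alternatives, as were other size factors, no filter, covariates (mouse number, a clock score), fits of 2 diets and fits without libraries. The fits were tested on simulated data. Correlations used log2 CPM (prior count 2) minus the diet mean, with 100000 permutations of libraries within diets and adjustment over 45 pairs. The genes named beside the set were those past the threshold, the 2 with the smallest p of each list, and the 3 most correlated with each gene of the set. Some genes that this rule names are not reported here. The set and the lists were chosen with earlier results of these data known.

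Samples of a diet are separate mice, so p-values measure the spread between mice. Depth limits low genes in general. Clec4g had too few counts for a test between diets, and the part of depth in this is not known.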

Additional observations from a re-analysis of the deposited data

How the results depend on the processing

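Of 322 alternative values of the log2 fold changes of the 9 tested genes, 44 had the opposite sign to the value reported, none of them called and none farther than 0.098 from 0. For red against control Col3a1 became 0.0015 with DESeq2 size factors, 0.0022 without a filter, 0.074 with limma-voom, 0.024 with mouse number as a covariate, 0.0065 with only the diets compared and 0.035 without control 137 and tangerine 225. Col1a2 became 0.050 with limma-voom, 0.031 with mouse number, 0.0031 with only the diets compared and 0.062 without those 2 libraries, and Col1a1 became 0.054 with limma-voom and 0.080 without them. Kdr became -0.011 with limma-voom and -0.059 without them, and Stab2 -0.033 without them. For tangerine against control Pecam1 became 0.00059 with DESeq2 size factors, 0.0042 without a filter, 0.00028 with DESeq2, 0.0013 with limma-voom and 0.013 without red 199 and tangerine 192. Reln became -0.037 with limma-voom, -0.015 with the clock score and -0.0073 without control 137 and tangerine 225. Without red 199 and tangerine 192 Col1a1, Col1a2 and Col3a1 became -0.064, -0.032 and -0.0023. For tangerine against red Col1a1 became -0.021 with DESeq2, and Kdr 0.0096 without control 137 and tangerine 225.

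Leaving out single livers took the values named here across 0, with no call. For red against control Col1a1 ran from -0.36 (without red 199) to 0.098, Col1a2 from -0.18 to 0.074, Col3a1 from -0.17 to 0.087, Kdr from -0.058 to 0.050 and Stab2 from -0.031 to 0.096. For tangerine against control Col1a1 ran from -0.064 (without tangerine 192) to 0.98, Col1a2 from -0.031 to 0.55, Col3a1 from -0.0020 to 0.42, Kdr from -0.11 to 0.034, Pecam1 from -0.058 to 0.047, Reln from -0.074 to 0.051 and Stab2 from -0.17 to 0.0015. For tangerine against red Col1a1 ran from -0.022 (without tangerine 192) to 1.21 (without red 199), Col1a2 from -0.028 to 0.65, Col3a1 from -0.0017 to 0.50 and Kdr from -0.077 to 0.0076.

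Members of the set were called in 1 alternative, limma-voom, with 1 gene (Dcn) for red against control. The count of listed pathway genes called for tangerine against red, 1 in the reported fit, was 2 with DESeq2, 4 with limma-voom, and 0 with the clock score, with mouse number, without red 186 and tangerine 216, and without red 199 and tangerine 192. It ran from 0 to 2 when single libraries were left out. For red against control it was 10 with limma-voom and 0 to 1 with single libraries left out. For any difference it was 1 with DESeq2, 6 with limma-voom and 0 to 1 with single libraries left out. The cause of these moves was not tested. Over all tested genes, tangerine against red called 241 in the reported fit and 0 with the clock score. It called 32 with mouse number, 86 without red 186 and tangerine 216, and 185 without red 199 and tangerine 192. The count of correlated pairs, 13, was 8 with Spearman's rho, 5 without control 137 and tangerine 225, and 5 without the 4 libraries that stand apart. The alternatives that leave out single or paired libraries other than red 186 and tangerine 216 were chosen after seeing the data.

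No paired analysis was possible because no mouse number occurs in more than 1 diet. DESeq2 gave no adjusted p for Lyve1 (-0.30) and Col1a1 in tangerine against control, so that these 2 are not among the 322 values. Its Col1a1 value there was -0.073, opposite in sign to the 0.84 reported. Clec4g had at most 6 counts in a library, and the part of depth or of the overlapping gene in this was not tested. The groups of 12 livers limit the collagens, whose intervals were the widest.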

Other observations

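Of all the genes listed here, 8 had 0 counts in every library, and all 8 lie wholly inside the spans of other genes in release M21. Among them are the retinol-esterifying enzyme Lrat, a defining gene of stellate cells, which lies inside Rbm46os, and the endothelial ligand Angpt2, which lies inside Mcph1. The metalloproteinase inhibitors Timp1 and Timp3, inside Syn1 and Syn3, and the hyaluronidase Hyal1, which overlaps Hyal3 and Naa80, were also at 0. The levels of these genes cannot be read from this table, in any diet or library. Of 833 protein-coding genes with most, but not all, of their exonic bases inside a gene on the other strand, 12.4% were at 0 in every library.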
